A study of Mus musculus with 35 samples.

Results

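The transcriptomes of the hippocampus and the amygdala were compared within 1 inbred mouse strain, C57BL/6J. The 18 arrays labelled C57BL/6J, 9 of hippocampus and 9 of amygdala, were taken out of the 35 arrays of the study, and the comparison covered the 8363 probes of 24620 that were detected on 9 or more of them. Detection means that a probe's signal exceeded that of the array's negative control beads with a detection p under 0.01. The mice of both groups were males aged 3 to 4 months with no treatment described. Both regions were punched out of frozen coronal brain sections with a needle, the hippocampus on its left side and the amygdala on both sides, and samples of individual mice were hybridized to separate Illumina MouseRef-8 arrays. The other arrays of the study (9 hippocampus and 8 amygdala) were those of A/J mice, a second inbred strain, and serve here for the strain comparison only. A punch holds every cell type at its site and may take in neighbouring tissue, so that fewer cells of a type and less RNA per cell cannot be told apart. No label ties a hippocampus sample to an amygdala sample of the same mouse.

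The hippocampus is built around a chain of glutamatergic cells, the granule cells of the dentate gyrus and the pyramidal cells of the fields CA3 and CA1, and serves spatial and episodic memory. The amygdala joins nuclei of different kinds. Its basolateral nuclei resemble cortex and are mostly glutamatergic, while the central and medial nuclei resemble the striatum, are mostly GABAergic and are rich in neuropeptides that act in fear, feeding and social behaviour.

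Between 6099 and 9239 probes (median 8696) were above background on the hippocampus arrays and between 6243 and 11039 (median 7944) on the amygdala arrays, so the groups overlapped in depth. In a principal component analysis of the tested probes, the first component held 46% of the variance and did not separate the regions. It followed the number of detected probes (correlation 0.926). The second component held 16.2% and did separate them, with hippocampus arrays at -28.99 to -8.17 and amygdala arrays at 7.64 to 34.97. The 18 arrays lay on 9 chips, of which 6 held both regions. The chips fall into 2 lots by the first digits of their IDs (the labels name no lot), with 3 hippocampus and 2 amygdala arrays in lot 1 and 6 hippocampus and 7 amygdala arrays in lot 2.

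Of the 8363 probes, 471 (5.63%) differed between the regions at an adjusted p under 0.01 in limma's moderated test. In hippocampus 289 probes of 255 named genes were higher (3.46% of those tested) and 182 probes of 164 named genes were lower (2.18%). All differences below are hippocampus minus amygdala on the log2 scale, with their standard errors, so that a positive value means a higher level in hippocampus. The median difference of the probes called higher was 1.16 and that of the probes called lower was -1.23, against 0.01 over all probes tested and a median standard error of 0.21. More than 2-fold differences were found for 191 probes called higher and 119 called lower, and more than 4-fold differences for 27 and 30 probes. On 230 probes (2.75%) the 9 hippocampus arrays did not overlap with the 9 amygdala arrays, 139 of them higher and 91 lower in hippocampus. All 471 called differences had the same sign in both lots, and 454 had it within each of the 6 chips that held both regions. The lots and chips are parts of the arrays that gave the calls, so this agreement is no replication of them. With chip as a block, 213 probes were higher and 161 lower in hippocampus, and 344 of the 471 were among them.

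**Figure D1:**
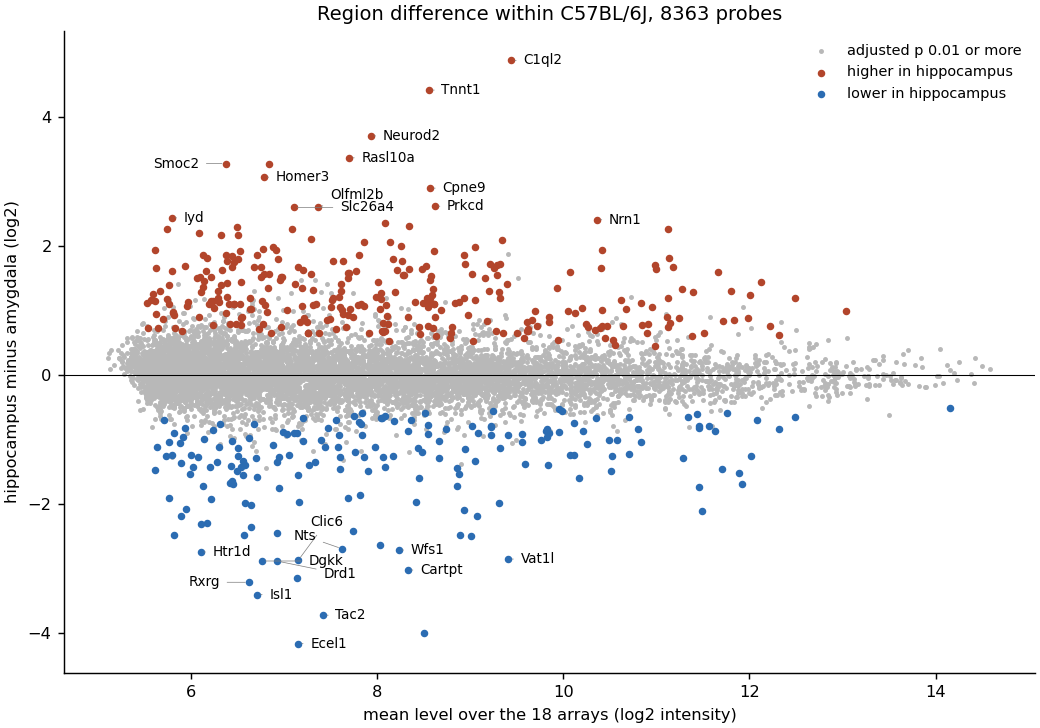
Difference between the regions (hippocampus minus amygdala, log2) against the mean level over the 18 C57BL/6J arrays (log2 intensity) for the 8363 probes tested; red and blue points are probes called higher and lower in hippocampus at an adjusted p under 0.01, grey points are all others. The named genes are the 12 with the largest differences in each direction, from 2.41 (Nrn1) to 4.88 (C1ql2) above the line and from -2.69 (Nts) to -4.16 (Ecel1) below it; genes whose groups overlapped, such as Tac1 at -3.14, and probes without a gene name are not labelled.

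The largest difference of all probes was that of C1ql2, a secreted C1q-like protein that dentate granule cells release from their mossy fibres to organize synapses. C1ql2 measured 11.17 to 12.43 (median 12.06) in hippocampus and 6.07 to 8.32 (median 6.74) in amygdala, a difference of 4.88 ± 0.29 or 29.4-fold (adjusted p = 3.0e-10). The lowest hippocampus array thus lay well above the highest amygdala array. Neurod2, a transcription factor of maturing glutamatergic forebrain neurons, measured 8.20 to 11.18 (median 10.09) in hippocampus, against 4.70 to 7.35 (median 6.09) in amygdala, where 7 of 9 arrays detected it (difference 3.71 ± 0.47, adjusted p = 1.0e-05). Its values spread widely within both groups. Only genes that were called and whose groups did not overlap were ranked here. Probes without a gene name were not ranked, and 2 of them, picked out after their values were seen, had differences as large. ILMN_1215624 lay between Ecel1 and Tac2 among those lower in hippocampus (adjusted p = 1.9e-07), and ILMN_2747811 was higher by 3.27 (adjusted p = 4.9e-09). Homer3, a scaffold protein of excitatory synapses, measured 7.41 to 9.41 (median 7.87) in hippocampus and 4.66 to 6.46 (median 5.06) in amygdala, where only 3 of 9 arrays detected it (difference 3.07 ± 0.29, adjusted p = 3.4e-07). Most of its amygdala values thus lay near the background. The sizes given here depend on the scale. On the authors' own transformed values, the 12 genes with the largest excess in hippocampus differed by 0.17 (Iyd) to 2.68 (C1ql2), Homer3 by 0.37, and the 12 with the largest deficit by -0.20 (Htr1d) to -1.50 (Vat1l), each in the same direction as here.

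Other genes with the largest excess in hippocampus code for signalling, membrane and secreted proteins. Rasl10a, a small Ras-like GTPase, measured 8.31 to 10.10 (median 9.83) in hippocampus and 5.13 to 7.08 (median 5.89) in amygdala (difference 3.37 ± 0.32). Cpne9, a copine and thus a calcium-dependent membrane-binding protein, measured 9.49 to 10.65 (median 10.07) in hippocampus and 6.26 to 7.57 (median 7.19) in amygdala (difference 2.90 ± 0.19). Nrn1, neuritin, a small membrane-anchored protein that promotes neurite growth, measured 11.05 to 12.15 (median 11.52) in hippocampus and 8.18 to 9.84 (median 9.30) in amygdala (difference 2.41 ± 0.21). Lack of overlap was a condition for ranking these 3 genes, whose adjusted p-values were 2.3e-07, 1.1e-09 and 1.1e-07. Slc26a4, an anion exchanger known from the inner ear and the thyroid, reached 7.89 to 8.87 (median 8.32) in hippocampus and 4.83 to 6.64 (median 5.94) in amygdala (difference 2.60 ± 0.22, adjusted p = 5.1e-08). Olfml2b, an olfactomedin-like secreted protein, was higher by 2.60 ± 0.18 (adjusted p = 2.6e-09), with 8.35 to 9.00 (median 8.73) in hippocampus and 5.52 to 7.15 (median 5.92) in amygdala.

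A few genes were detected on all 9 arrays of one region and on none of the other. In either direction, such probes met the detection filter only through the region where they are high. Their direction was therefore fixed by the way they were picked, and their adjusted p-values are no separate support for it. With hippocampus detected and amygdala not, there were 5 probes, 4 of them with a gene name: Smoc2, Iyd, Atp2a1 and Arsj. Smoc2, a secreted calcium-binding matrix protein, measured 7.20 to 8.95 (median 7.88) in hippocampus and was not above background in amygdala, where its values were 4.46 to 5.01. The level in hippocampus was at least 5.06-fold higher, a lower bound taken against the lowest detected level of each amygdala array (adjusted p = 9.4e-10 for the fitted difference of 3.28 ± 0.21). Iyd, a deiodinase that recovers iodide from iodotyrosines in the thyroid, was at least 2.53-fold higher (adjusted p = 8.3e-11). Atp2a1, a calcium pump of the endoplasmic reticulum best known from fast muscle, was at least 2.29-fold higher (adjusted p = 5.2e-08), and Arsj, a sulfatase, at least 1.88-fold higher (adjusted p = 1.1e-07).

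In the other direction 10 probes were detected on all 9 amygdala arrays and on no hippocampus array, 9 of them with a gene name: Isl1, Htr1d, Mc3r, Tacr1, Dmkn, Chodl, Rhcg, Cfap45 and Crabp1. Isl1, a LIM homeobox factor of striatal and other ventral forebrain neurons, had values of 4.64 to 5.59 in hippocampus, none above background, and of 7.99 to 8.86 (median 8.38) in amygdala. The bound for Isl1 was at least 6.79-fold lower in hippocampus (adjusted p = 1.3e-11). Of these genes 3 code for receptors. Htr1d, a serotonin receptor coupled to inhibitory G proteins, was at least 3.53-fold lower in hippocampus (adjusted p = 2.0e-09), with 6.38 to 7.95 (median 7.70) in amygdala. Mc3r, a melanocortin receptor, was at least 3.18-fold lower (adjusted p = 8.0e-08), and Tacr1, the receptor of substance P, at least 2.52-fold lower (adjusted p = 8.3e-11). Bounds for the other named genes were 2.50-fold for Dmkn, 2.09-fold for Chodl, 1.63-fold for Cfap45 and 1.62-fold for Crabp1, a cellular retinoic acid binding protein. Rhcg, an ammonium transporter, did not pass the test (difference -1.27 ± 0.33, adjusted p = 0.0146), and its groups overlapped.

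**Figure D2:**
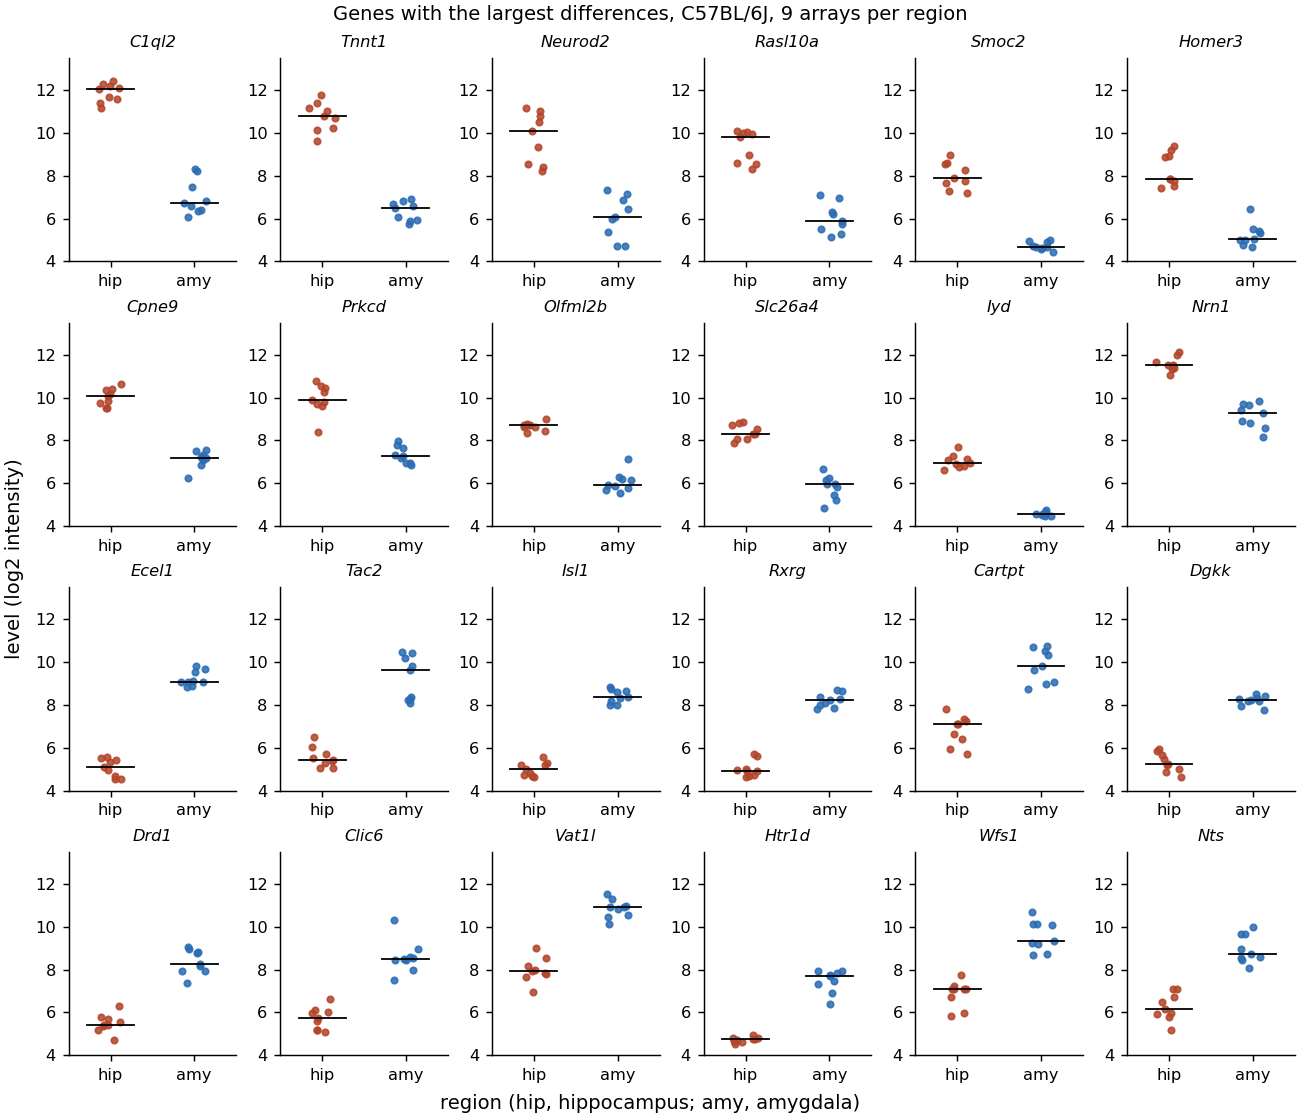
Levels (log2 intensity) of the 24 genes with the largest differences on the 9 hippocampus (red, left) and the 9 amygdala (blue, right) arrays of C57BL/6J, each point 1 array and each bar a group median. The upper 12 genes are higher and the lower 12 lower in hippocampus, all picked for groups without overlap between the regions. For Isl1, Htr1d, Smoc2 and Iyd no array of the lower region was above background.

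Among the genes lower in hippocampus, Ecel1 had the largest difference. It codes for an endothelin-converting enzyme-like peptidase of neurons. Ecel1 measured 4.53 to 5.56 (median 5.08) in hippocampus, where 3 of 9 arrays detected it, against 8.86 to 9.80 (median 9.09) in amygdala (difference -4.16 ± 0.18, adjusted p = 8.8e-12). Rxrg, a retinoid X receptor typical of striatum, measured 4.62 to 5.70 (median 4.93) in hippocampus, with 2 of 9 arrays above background, and 7.79 to 8.72 (median 8.25) in amygdala (difference -3.21 ± 0.17, adjusted p = 8.5e-11). Both genes were thus near background in hippocampus and clearly present on every amygdala array. Dgkk, a diacylglycerol kinase encoded on the X chromosome, measured 4.65 to 5.92 (median 5.25) in hippocampus and 7.77 to 8.49 (median 8.25) in amygdala (difference -2.88 ± 0.17, adjusted p = 3.0e-10). Vat1l, which is related to a vesicle amine transport protein, was present in both regions, with 6.96 to 9.00 (median 7.95) in hippocampus and 10.12 to 11.51 (median 10.91) in amygdala (difference -2.85 ± 0.23, adjusted p = 3.3e-08). Wfs1, a protein of the endoplasmic reticulum also used as a marker of CA1 pyramidal cells, measured 5.84 to 7.75 (median 7.08) in hippocampus and 8.69 to 10.68 (median 9.34) in amygdala. Its difference of -2.71 ± 0.29 (adjusted p = 1.2e-06) thus has the opposite sign to that of the other hippocampal markers called.

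The labelled tissues were described with lists of marker genes. These lists were chosen with earlier results of these data known, so they are no independent check of the labels or the dissection. Counts of list members, here and below, may be read against 3.46% of all probes called higher and 2.18% called lower. Of the list of hippocampal subfield markers, 24 genes were on the array and 15 were tested, of which 6 were higher and 1 (Wfs1) lower in hippocampus, with a median difference of 0.57. Besides C1ql2, Smoc2, Homer3 and Iyd, the higher ones were Prox1, the homeobox factor of dentate granule cells (8.24 to 9.55, median 8.86, in hippocampus, and 6.06 to 7.52, median 7.03, in amygdala), and Bok, a Bcl-2 family protein of CA3 (10.67 to 11.99, median 11.35, in hippocampus, and 9.02 to 10.11, median 9.44, in amygdala). Prox1 differed by 2.06 (adjusted p = 9.0e-07) and Bok by 1.94 (adjusted p = 2.3e-07). The CA1 markers Fibcd1 and Pou3f1 and the CA2 and CA3 markers Amigo2 and Grik4 did not pass, with differences of 0.85, 0.21, 0.16 and 0.57. Several defining markers, Calb1, Man1a, Tdo2, Coch and Ccn3 among them, were above background on none of the 18 arrays.

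Of the amygdala nucleus markers, 19 were on the array and 13 were tested, of which 8 were lower and 1 higher in hippocampus, with a median of -1.39. The lower ones were Ecel1, Tac2, Isl1, Cartpt, Tacr1, Cyp26b1, Lypd1 and Dlk1. Cyp26b1, which degrades retinoic acid, measured 7.42 to 8.29 (median 7.92) in hippocampus and 9.52 to 11.10 (median 10.34) in amygdala (difference -2.18, adjusted p = 2.3e-07). Lypd1, a membrane-anchored modulator of nicotinic receptors, measured 8.81 to 9.45 (median 9.14) in hippocampus and 10.11 to 11.11 (median 10.29) in amygdala (difference -1.39, adjusted p = 3.2e-06). The basolateral markers Rspo2 and Etv1 did not pass, at 0.30 and 0.05, and Crh, Esr1, Lhx6 and Gulp1 were above background on none of the 18 arrays. Among the genes that passed, Isl1, Tac2, Ecel1 and Cartpt are known from the central and medial nuclei.

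The exception in that list was Prkcd, a protein kinase C that marks cells of the central amygdala and also neurons of the thalamus. Prkcd measured 8.37 to 10.76 (median 9.90) in hippocampus and 6.87 to 7.96 (median 7.25) in amygdala, a difference of 2.62 ± 0.26 (adjusted p = 4.7e-07). It was 1 of 7 tested genes of the thalamus list, and all 7 were higher in hippocampus, with a median of 2.09. Tnnt1, the slow skeletal troponin T that thalamic relay neurons express, was the second largest difference of all probes. It measured 9.61 to 11.79 (median 10.81) in hippocampus and 5.73 to 6.91 (median 6.50) in amygdala, a difference of 4.42 ± 0.26 or 21.4-fold (adjusted p = 2.4e-10). Rgs16, a regulator of G protein signalling, differed by 2.36 (adjusted p = 5.2e-07), Tcf7l2, the Wnt effector that specifies thalamic neurons, by 2.09 (3.4e-07), and Ntng1, netrin-G1 of thalamocortical axons, by 2.01 (1.7e-06). Rora, a nuclear receptor of thalamic and other neurons, differed by 2.06 (3.6e-04) and Slc17a6, the vesicular glutamate transporter of the thalamus, by 1.03 (0.00438), both with overlapping groups.

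Summed over the 7 genes on the linear scale, the thalamus markers reached 3550 to 12500 (median 8910) intensity units in hippocampus and 1710 to 2910 (median 2190) in amygdala. The sums of hippocampal subfield markers were 8600 to 15600 in hippocampus and 4020 to 5310 in amygdala. Hippocampus array 2 had the lowest thalamus sum of its group, 3550, and the highest subfield sum, 15600. At the other ends, array 3 had the highest thalamus sum, 12500, with a subfield sum of 12100. Array 8 had the lowest subfield sum, 8600, with a thalamus sum of 8910. A relation between these sums was not tested. All 7 thalamus genes were also called without hippocampus array 2. The same held without any other array except hippocampus array 3, 6 or 9 or amygdala array 4, where Slc17a6 missed the threshold (adjusted p of at most 0.011). Whether tissue next to the hippocampus entered the punches was not tested. The 5 tested genes of the meninges list were all positive, from 0.26 (Mgp) to 1.13 (Dcn), with a median of 0.64, but none passed at 0.01. With 1 array left out, Dcn and Ptgds each passed in 1 of the 18 fits, and 2 genes of the list passed with the number of detected probes as a covariate. Their sums were 5680 to 11600 in hippocampus and 4340 to 6520 in amygdala.

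Markers of tissue that borders the amygdala moved the other way. Of 13 tested genes of striatal signalling, 6 were lower in hippocampus and none was higher, with a median of -0.72. Drd1, the dopamine receptor of the direct striatal pathway, measured 4.71 to 6.30 (median 5.40) in hippocampus, where 5 of 9 arrays detected it, and 7.36 to 9.03 (median 8.25) in amygdala (difference -2.88 ± 0.23, adjusted p = 3.3e-08). Rgs9, the striatal regulator of G protein signalling, measured 7.25 to 8.00 (median 7.67) in hippocampus and 9.10 to 11.42 (median 10.08) in amygdala (difference -2.48, adjusted p = 4.7e-07). Arpp21, a cAMP-regulated phosphoprotein, differed by -2.11 (adjusted p = 5.6e-06) on its brighter probe, whereas a second probe of the gene read 0.14 (adjusted p = 0.851). Ppp1r1b, known as DARPP-32, measured 4.60 to 6.58 (median 5.15) in hippocampus and spread widely in amygdala, with 5.09 to 9.59 (median 8.02), so that its groups overlapped (difference -2.48, adjusted p = 7.9e-04). Rxrg is also a member, and Actn2 passed at -0.72 (adjusted p = 0.00726), a call lost in 11 of the 18 fits that left out 1 array (adjusted p of at most 0.0176). The summed level of the list was 5520 to 8520 (median 6330) in hippocampus and 7740 to 26000 (median 16200) in amygdala, with amygdala arrays 2 and 3 at the low end, at 9520 and 7740, and array 7 at the high end.

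Of 6 tested genes of the hypothalamus list, 3 were lower in hippocampus and the other 3 were negative without passing, with a median of -1.14. Zcchc12, a zinc finger coactivator, measured 7.53 to 8.12 (median 7.85) in hippocampus and 9.43 to 10.49 (median 9.90) in amygdala (difference -2.09, adjusted p = 2.8e-09). Hap1, the huntingtin-associated protein, measured 10.06 to 11.09 (median 10.52) in hippocampus and 11.95 to 12.66 (median 12.36) in amygdala (difference -1.73, adjusted p = 2.3e-07), and Resp18, an endocrine secretory protein, differed by -1.52 (adjusted p = 4.7e-07). Of the other genes of the list, Pomc, Otp and Sim1 were above background on none of the 18 arrays. Avp was detected on 8, Oxt on 5, Ghrh on 4 and Hcrt on 3 of 9 amygdala arrays and on no hippocampus array. What share of the amygdala results comes from striatal or hypothalamic tissue was not tested.

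**Figure D3:**
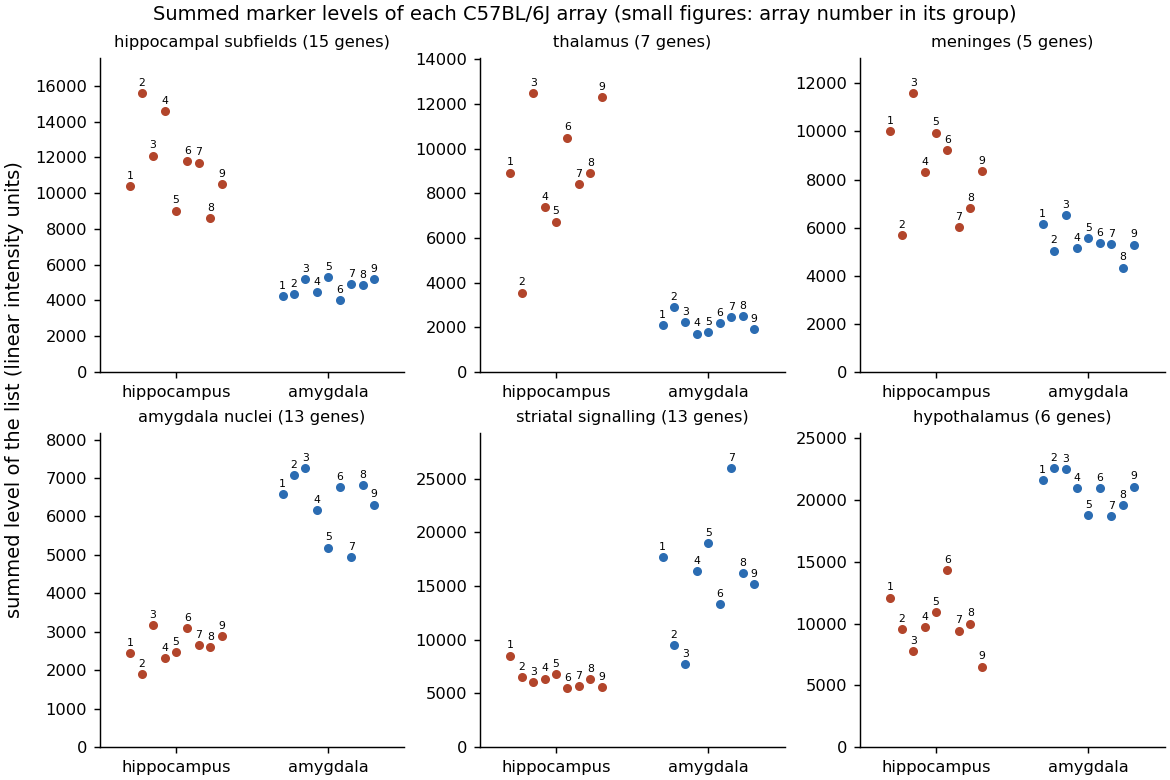
Summed level (linear intensity units) of the tested genes of 6 marker lists on each C57BL/6J array, with hippocampus arrays in red on the left and amygdala arrays in blue on the right; the small digits number the arrays within a group. Thalamus sums were 3550 to 12500 in hippocampus and 1710 to 2910 in amygdala, and striatal sums 5520 to 8520 in hippocampus and 7740 to 26000 in amygdala.

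Few glial and vascular markers were called, from lists too short for much to be read from that at a share of 5.63% over all probes. None of 17 myelin and oligodendrocyte genes passed, though 15 of them were negative (median -0.42, sums of 19900 to 55600 in hippocampus and 26800 to 62900 in amygdala). In 4 of the 18 fits without 1 array Mal, a myelin proteolipid, passed, as did Cnp, a myelin enzyme, in 1. The A/J arrays, fitted on their own, gave a median of -1.03 for the same genes, with 11 of 17 called lower in hippocampus, among them Mag, a myelin adhesion protein, at -1.23 (adjusted p = 2.6e-05). None of 13 microglial genes passed, with 12 of them negative (median -0.25), and none of 8 vessel genes did (median 0.09). Among 11 astrocyte genes only Itih3, an inter-alpha-trypsin inhibitor chain, was called (difference -0.92, adjusted p = 0.00101), with a median of 0.07 for the list. The choroid plexus was represented by 2 tested genes. Clic6, an intracellular chloride channel protein of that epithelium, measured 5.06 to 6.62 (median 5.72) in hippocampus and 7.49 to 10.33 (median 8.49) in amygdala (difference -2.87 ± 0.29, adjusted p = 6.0e-07), with its highest value on amygdala array 3. Ttr, transthyretin, the defining product of the choroid plexus, differed by 0.74 ± 0.89 (adjusted p = 0.767), and Folr1, Kcne2 and Foxj1 were above background on none of the 18 arrays.

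Neuropeptide genes were called mostly as lower in hippocampus. Of 33 precursor and processing genes listed, 29 were on the array and 17 were tested, of which 8 were lower and 1 higher in hippocampus, against 2.18% and 3.46% of all probes. Tac2, the precursor of neurokinin B, measured 5.05 to 6.50 (median 5.45) in hippocampus and 8.11 to 10.46 (median 9.64) in amygdala (difference -3.72 ± 0.35, adjusted p = 2.3e-07). Cartpt, the precursor of the cocaine- and amphetamine-regulated peptides, measured 5.69 to 7.82 (median 7.10) in hippocampus and 8.73 to 10.74 (median 9.82) in amygdala (difference -3.02 ± 0.32, adjusted p = 1.1e-06). Nts, the neurotensin precursor, measured 5.18 to 7.09 (median 6.17) in hippocampus and 8.07 to 10.01 (median 8.74) in amygdala (difference -2.69 ± 0.29, adjusted p = 1.1e-06). These 3 peptides are among the genes picked for groups that did not overlap. Sst, somatostatin, was abundant in both regions and also did not overlap, with 9.90 to 11.15 (median 10.78) in hippocampus and 11.37 to 12.25 (median 11.90) in amygdala (difference -1.29, adjusted p = 2.6e-05).

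Tac1, the precursor of substance P, had a difference as large as these, -3.14 (adjusted p = 5.2e-05), but 4.73 to 6.50 (median 5.53) in hippocampus and 6.06 to 10.28 (median 8.99) in amygdala overlapped. Gal, galanin, differed by -1.97 (adjusted p = 9.5e-05), Pdyn, prodynorphin, by -1.39 (2.1e-04) and Trh, thyrotropin-releasing hormone, by -1.23 (0.00446), each with 1 or more overlapping arrays. Chgb, the granin chromogranin B of secretory vesicles, was the member that was higher in hippocampus, with 9.07 to 10.92 (median 9.68) in hippocampus and 8.07 to 9.66 (median 8.42) in amygdala (difference 1.20, adjusted p = 0.00742). The calls of Chgb and of Trh were lost in 11 and in 7 of the 18 fits that left out 1 array, at adjusted p-values up to 0.0182 and 0.0109. Npy, neuropeptide Y, read -0.18 (adjusted p = 0.794) and Cck, cholecystokinin, 1.21 (adjusted p = 0.0217), so neither was called. Penk, the enkephalin precursor, was not tested, being detected on 6 of 9 amygdala and on no hippocampus array.

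Several neuropeptide genes are known targets of the transcription factor CREB, which binds the cyclic AMP response element TGACGTCA. This palindrome was searched in the promoters of the RefSeq table (GRCm38.p6, 250 bases before to 50 after the start of each gene; being palindromic, it reads the same on both strands). It was found in 549 of 27025 genes with a promoter (2.03%), in 201 of 5464 tested genes (3.68%) and in 4 of the 16 tested neuropeptide genes with a promoter (25.0%). Those 4 were Sst, Cartpt, Chgb and Scg2. It stood in 2 of the 8 that were lower in hippocampus, Sst and Cartpt, and in Chgb, which was higher. The call of Chgb was lost in 11 of the 18 fits that left out 1 array (adjusted p of at most 0.0182). Scg2, secretogranin II, did not pass (difference -1.38, adjusted p = 0.17). Over all called genes it was found in 2 of 194 genes higher (1.03%) and in 3 of 130 genes lower in hippocampus (2.31%). The stretches around the element of the 3 called genes are given from 5′ to 3′ on the strand of the gene, with the element in capitals, since genes with the same element fell on opposite sides of the comparison.
Sst, chr16:23890845-23890942, minus strand, element starting 48 bases before the gene start: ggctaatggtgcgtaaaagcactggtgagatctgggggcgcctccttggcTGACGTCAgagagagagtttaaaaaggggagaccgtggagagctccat
Cartpt, chr13:99900748-99900845, minus strand, element starting 112 bases before the gene start: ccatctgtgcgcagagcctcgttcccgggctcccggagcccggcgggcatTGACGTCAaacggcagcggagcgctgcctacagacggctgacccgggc
Chgb, chr2:132781520-132781617, plus strand, element starting 72 bases before the gene start: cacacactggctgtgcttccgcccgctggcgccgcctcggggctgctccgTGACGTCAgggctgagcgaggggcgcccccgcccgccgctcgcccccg

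Of the receptors for neuropeptides, 8 of the 28 on the array were tested, 3 of which were lower and 1 higher in hippocampus. Over all probes, 2.18% were called lower and 3.46% higher. Beside Tacr1, the lower ones were Cckbr, the brain receptor of cholecystokinin (6.59 to 8.16, median 7.37, in hippocampus, and 8.29 to 9.29, median 8.73, in amygdala), and Ntsr1, the high-affinity neurotensin receptor (5.53 to 6.71, median 6.12, in hippocampus, and 6.80 to 7.41, median 7.07, in amygdala). Cckbr differed by -1.27 (adjusted p = 1.7e-04) and Ntsr1 by -0.98 (adjusted p = 4.1e-05), without overlap. For neurotensin and for substance P, the precursor and a receptor were thus both lower in hippocampus. Npy1r, a receptor of neuropeptide Y, was higher by 1.46 (adjusted p = 0.00159), with overlapping groups and detection on 4 of 9 amygdala arrays.

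Of the genes of glutamatergic transmission, both vesicular transporters tested were higher in hippocampus and no receptor subunit passed. Slc17a7, the vesicular glutamate transporter of cortical and hippocampal neurons, measured 11.36 to 13.27 (median 12.20) in hippocampus and 7.56 to 11.54 (median 9.91) in amygdala (difference 2.27, adjusted p = 0.00211). The amygdala arrays spread over a wide range and the highest of them overlapped with hippocampus. Of the 10 tested glutamate receptors and transporters, Slc17a7 and Slc17a6 were called higher and none lower. Slc17a6 is also on the thalamus list, and its call was lost in 4 of the 18 fits without 1 array. Receptor subunits that did not pass include Gria1 at 0.72 (adjusted p = 0.538) and Gria2 at 0.22, while Grin2a and Grin2b were above background on none of the 18 arrays.

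Of 19 postsynaptic kinases and scaffolds, 6 were higher and none lower in hippocampus, with a median of 0.71. Camk2a, the alpha subunit of calcium/calmodulin-dependent kinase II, measured 11.92 to 13.11 (median 12.36) in hippocampus and 9.98 to 11.78 (median 11.05) in amygdala (difference 1.60, adjusted p = 7.1e-05). Camk2b, the beta subunit, measured 13.10 to 14.03 (median 13.58) in hippocampus and 12.18 to 12.86 (median 12.59) in amygdala (difference 0.99, adjusted p = 3.6e-05). Both kinase subunits, which act in long-term potentiation, were bright in both regions and did not overlap. Nrgn, neurogranin, a calmodulin-binding protein of dendrites, differed by 1.20 (adjusted p = 4.6e-04), Shank3, a master scaffold, by 0.91 (6.8e-04) and Itpka, an inositol trisphosphate kinase of spines, by 0.97 (0.00543), each with overlap. The call of Itpka was lost in 8 of the 18 fits that left out 1 array (adjusted p of at most 0.0132), and within chip lot 2 the list held 3 calls. Among the other members Dlg4, also known as PSD-95, read 0.52 (adjusted p = 0.687) and Homer1 -0.32 (adjusted p = 0.456). In the list of calcium sensors, Cpne6, a copine of excitatory neurons, was higher by 1.45 (adjusted p = 1.2e-05) and Hpca, hippocalcin, by 1.20 (adjusted p = 0.00295), while the other 16 of 18 tested did not pass, against 3.46% of all probes called higher.

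Of 27 tested genes of synaptic vesicles and their fusion machinery, 1 was higher and 2 were lower in hippocampus, beside 3.46% and 2.18% of all probes. Syt13 was higher by 0.97 (adjusted p = 0.00539), a call lost in 9 of the 18 fits without 1 array (adjusted p of at most 0.0129), while Syt5 was lower at -0.91 (adjusted p = 0.00111) and Rab3b, a small GTPase of vesicles, at -1.08 (adjusted p = 5.6e-04). All other 24 members did not pass on the probe used, among them Syp, synaptophysin, at 0.39. Doc2a read 0.03 (adjusted p = 0.955) on its brighter probe but -1.54 (adjusted p = 5.8e-05) on a second one.

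The transcription factors of the 2 lineages went in opposite directions. Of 11 tested factors of glutamatergic neurons, 7 were higher and none lower in hippocampus (Neurod2, Prox1, Nfib, Fezf2, Zbtb20, Lhx2 and Lmo4; median 0.96), and all 11 differences were positive. The count was 3 within chip lot 2 and 5 with chip as a block. Nfib, a nuclear factor that shapes the developing hippocampus, measured 8.97 to 10.63 (median 9.80) in hippocampus and 7.38 to 8.81 (median 7.95) in amygdala (difference 1.73, adjusted p = 2.3e-05). Zbtb20, a repressor that specifies hippocampal pyramidal fate, differed by 1.50 (adjusted p = 1.9e-04), and Fezf2, a factor of cortical projection neurons, by 1.56 (adjusted p = 0.0035). Lmo4 passed at 0.63 (adjusted p = 0.00528), a call lost in 8 of the 18 fits that left out 1 array (adjusted p of at most 0.0125). Tbr1, a factor of cortical layers and of the amygdala, did not pass at 0.51 (adjusted p = 0.14).

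Of 11 tested factors of the ventral forebrain, which gives rise to GABAergic neurons, 4 were lower and none higher in hippocampus, with a median of -0.63. Besides Isl1, these were the TALE homeobox factors Meis1 and Meis2 and the striatal factor Ebf1. Meis1 measured 4.55 to 5.72 (median 4.89) in hippocampus, with 1 of 9 arrays above background, and 6.15 to 7.64 (median 7.38) in amygdala (difference -2.30, adjusted p = 8.0e-08). Meis2 measured 4.53 to 5.96 (median 5.23) in hippocampus and 6.36 to 7.98 (median 7.44) in amygdala (difference -1.92, adjusted p = 8.1e-06). Ebf1 passed at -0.75 (adjusted p = 0.00694) and lost the call in 11 of the 18 fits without 1 array (adjusted p of at most 0.0164), and the homeobox factors Dlx1 and Dlx2 did not pass at -0.63 and -0.85.

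For GABA itself, 1 of 8 tested genes was called, beside 5.63% of all probes. Slc32a1, the vesicular GABA transporter, measured 10.51 to 11.61 (median 11.13) in hippocampus and 11.94 to 13.41 (median 12.66) in amygdala, without overlap (difference -1.68, adjusted p = 5.4e-06). Gad1, the main GABA-synthesizing enzyme, read -0.81 at an adjusted p of 0.0113, just outside the threshold, and Gabrd, the delta subunit of extrasynaptic receptors, 1.29 (adjusted p = 0.0314). Of the interneuron genes not named so far, Kcnc1, the fast potassium channel Kv3.1, was higher by 0.67 (adjusted p = 2.3e-04) and Pvalb, parvalbumin, read -0.01 (adjusted p = 0.995).

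**Figure D4:**
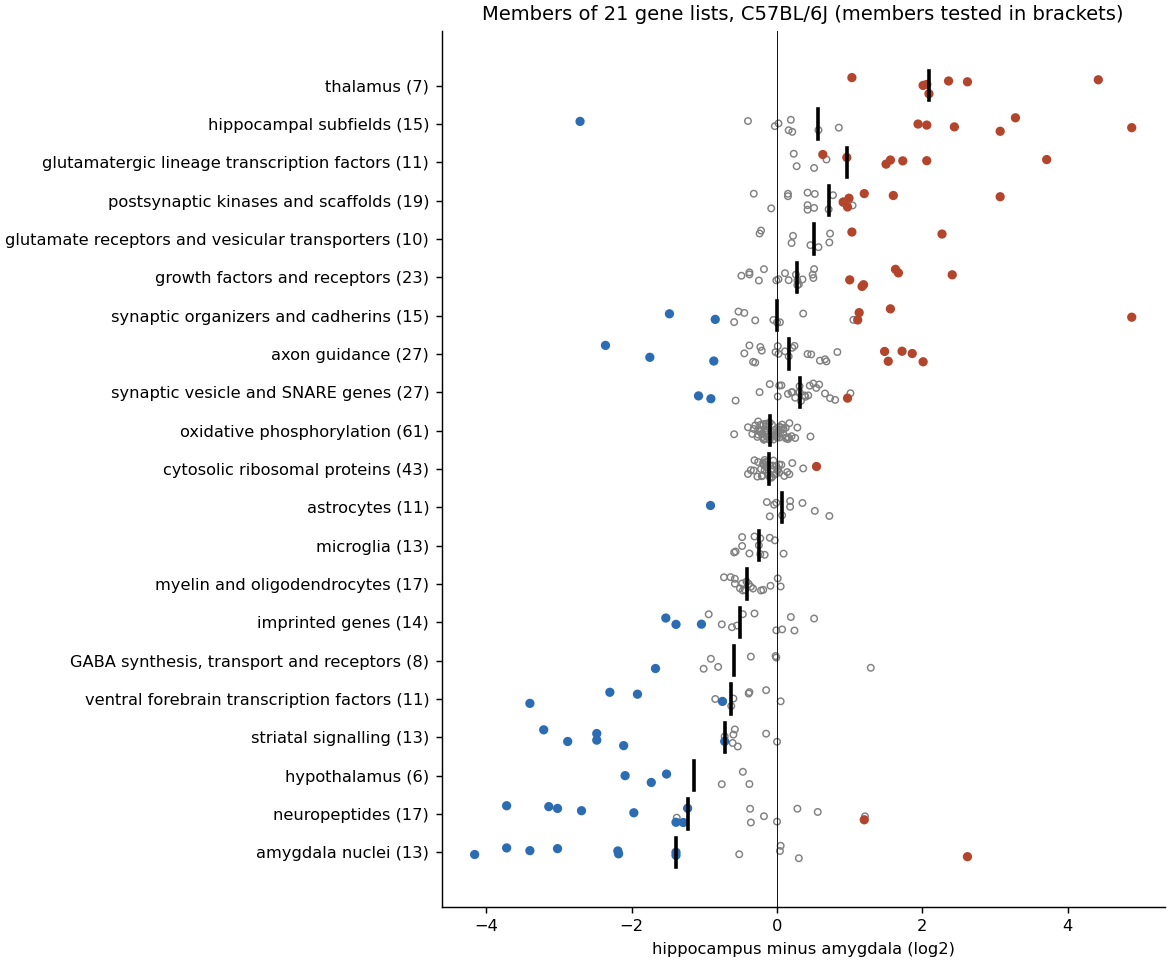
Difference between the regions (hippocampus minus amygdala, log2) of each tested member of 21 gene lists within C57BL/6J; filled red and blue points passed at an adjusted p under 0.01, open points did not, and black bars are list medians. Medians range from 2.09 (thalamus) to -1.39 (amygdala nuclei), and the ribosomal and oxidative phosphorylation genes lie around -0.11 and -0.10.

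Genes of axon guidance were called in both directions. The counts of this and the following lists stand beside 3.46% of all probes called higher and 2.18% called lower. Of 27 tested axon guidance genes, 5 were higher (Ntng1, Nrp1, Sema5a, Epha4 and Slit1) and 3 lower in hippocampus (Sema3a, Sema3f and Sema4a). Nrp1, the neuropilin that receives semaphorin signals, measured 9.00 to 10.63 (median 9.79) in hippocampus and 7.15 to 8.66 (median 8.08) in amygdala (difference 1.86, adjusted p = 1.1e-05). Sema3a, a secreted ligand of Nrp1, measured 4.69 to 6.91 (median 5.07) in hippocampus, with 2 of 9 arrays above background, and 6.75 to 8.32 (median 7.96) in amygdala (difference -2.36, adjusted p = 1.1e-05). The receptor was therefore higher and the ligand lower in hippocampus. Sema3f, a ligand of neuropilin-2, differed by -1.75 (adjusted p = 2.3e-04). Sema5a differed by 1.72 on its brighter probe and by 0.07 on a second one (adjusted p = 0.931).

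Among 15 synaptic organizers and cadherins, 4 were higher (C1ql2, Pcdh20, Lrrtm1 and Cdhr1) and 2 lower in hippocampus (Cbln4 and Pcdh10). Cbln4, a cerebellin and thus a relative of C1ql2, measured 6.77 to 7.60 (median 7.08) in hippocampus and 8.16 to 9.09 (median 8.67) in amygdala (difference -1.48, adjusted p = 1.7e-06). These 2 secreted organizers thus differed in opposite directions. Lrrtm1, a postsynaptic adhesion protein of excitatory synapses, was higher by 1.13 (adjusted p = 4.7e-05).

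Of 23 growth factors and receptors, 6 were higher and none lower in hippocampus. Besides Nrn1 they were Tgfb2, Fgf10, Fgf13, Gdf10 and Igfbp5. Tgfb2, a transforming growth factor, measured 7.22 to 7.96 (median 7.54) in hippocampus and 4.97 to 7.03 (median 5.92) in amygdala, where 4 of 9 arrays detected it (difference 1.67, adjusted p = 4.2e-06). Fgf10, a fibroblast growth factor, measured 7.60 to 8.61 (median 7.78) in hippocampus and 5.65 to 7.21 (median 6.37) in amygdala (difference 1.63, adjusted p = 3.4e-05). Both did not overlap, and neither did Gdf10, at 1.19 (adjusted p = 2.4e-04).

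In the retinoid pathway 5 of 7 tested genes passed, 2 higher and 3 lower in hippocampus. Rxrg, Crabp1 and Cyp26b1 were the lower ones, and Aldh1a1, which makes retinoic acid, was higher by 1.09 (adjusted p = 0.00193), as was the listed thyroid hormone binding protein Crym, by 1.60 (adjusted p = 1.2e-05). In the stress hormone list, 1 of 6 passed, beside 5.63% of all probes. Hsd11b1, the enzyme that regenerates active glucocorticoid, measured 9.68 to 10.79 (median 10.06) in hippocampus and 8.20 to 8.62 (median 8.46) in amygdala, far apart (difference 1.71, adjusted p = 4.3e-08), while Fkbp5 read 0.72 (adjusted p = 0.0135).

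Of 7 tested monoamine and acetylcholine receptors, Htr1d and Drd1 were lower and Chrna4, a nicotinic subunit common in thalamus and cortex, was higher in hippocampus, by 1.52 (adjusted p = 1.8e-04). The counts in the next lists may be read against 3.46% of all probes called higher and 2.18% called lower. Of 26 potassium channel genes, Kcnab2 and Kcnc1 were higher, by 1.25 and 0.67, and Kcna6 was lower at -0.65 (adjusted p = 0.00741), with that last call lost in 12 of the 18 fits without 1 array (adjusted p of at most 0.018). Among 16 RGS proteins and phosphodiesterases, Rgs16 was higher and Rgs9 and Rgs17 were lower, the call of Rgs17 (difference -1.02) being lost in 12 of the 18 fits without 1 array (adjusted p of at most 0.0173). Of 14 imprinted genes, 3 were lower and none higher: Usp29 at -1.53, Dlk1, a notch ligand-like protein, at -1.39 and Impact, a translation regulator, at -1.04 (adjusted p = 0.00102, 5.3e-05 and 6.1e-04). Of 12 immediate early genes, which neurons induce when active, only Jun was called (difference 1.95, adjusted p = 7.4e-06), while Fos read -0.02 and Arc 0.48 (adjusted p = 0.989 and 0.122). Of 11 genes of dentate neurogenesis, Prox1 was higher and Gap43, a growth cone protein, lower at -1.38 (adjusted p = 0.00121), and Dcx, doublecortin of newborn neurons, read -0.60 (adjusted p = 0.0456).

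Housekeeping machinery was close to even. None of 61 oxidative phosphorylation genes and none of 24 proteasome subunits passed, with medians of -0.10 and 0.01, and 1 of 43 cytosolic ribosomal protein genes did, Rpl22 at 0.54 (adjusted p = 0.00376). Neither of the 2 tested sex steroid genes passed. Over all 36 lists, 503 distinct genes were tested and 97 were called, beside 5.63% of all probes. Those lists were chosen with earlier results of these data known.

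The same region comparison was fitted on the 17 A/J arrays, which share no array with those of C57BL/6J, on the same 8363 probes. In A/J 735 probes (8.79%) were called. Of the 471 probes called in C57BL/6J, 463 (98.3%) had the same sign in A/J, against 59.5% of all probes tested, and 355 (75.4% of the 471, and 48.3% of the 735) were also called there in the same direction. None was called in the opposite direction. Of the 24 genes with the largest differences, 23 were called in A/J in the same direction. The remaining one was Prkcd, which read 1.04 in A/J (adjusted p = 0.0172). Differences of the other thalamus genes in A/J were 3.79 for Tnnt1, 2.07 for Rgs16, 1.72 for Ntng1, 1.07 for Slc17a6, 0.97 for Tcf7l2 and 0.26 for Rora. The median of the 7 genes of that list was 1.07, and 3 of the 7 were called higher in A/J hippocampus.

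Whether a region difference itself differed between the strains was tested as the interaction in 1 fit of all 35 arrays, over 10408 probes. It passed for 7 probes (0.0673%), all of named genes: Arsj, Baiap2l1, Krt9, Iyd, Fgf10, Lypd1 and Zfhx3. With chip as a block 4 probes passed, and 2 did when arrays were scaled by their medians in place of quantiles. Values in this comparison come from a normalization of all 35 arrays together and so differ slightly from those above. The paper ran its own interaction test on this study's arrays and named, among others, Arsj, Baiap2l1, Krt9, Fgf10 and Lypd1. It also named Myoc and 4930511J11Rik, which were not called here, and did not name Zfhx3. The paper proposes that sequence variants within probes lower the A/J signal of many probes that differ between the strains. It reported known variants in part of the probes of its strain module and found more by sequencing. Whether the probes of the 7 genes named here carry such variants was not tested. Arsj measured 5.92 to 7.48 (median 6.73) in C57BL/6J hippocampus and was above background on no array of C57BL/6J amygdala or of either A/J region. With 3 groups at background its difference is known only as a bound, and the fitted interaction of 1.99 ± 0.20 (adjusted p = 8.2e-08) gives no exact size. Baiap2l1, a membrane-bending adaptor protein, was the mirror case, with no detection in either C57BL/6J region, 5.45 to 7.10 (median 6.69) in A/J hippocampus, and detection on 2 of 8 arrays of A/J amygdala, at 4.76 to 5.67 (fitted interaction -1.53 ± 0.21, adjusted p = 1.0e-04, likewise against background).

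Lypd1, by contrast, was bright in all groups. It was lower in hippocampus in C57BL/6J, with 8.93 to 9.57 (median 9.26) in hippocampus and 10.23 to 11.21 (median 10.40) in amygdala, whereas the A/J arrays read 10.71 to 11.71 (median 11.18) for hippocampus and 10.63 to 11.72 (median 11.30) for amygdala (interaction -1.31 ± 0.22, adjusted p = 0.00176). The C57BL/6J hippocampus arrays thus lay below those of all other groups, and most C57BL/6J amygdala arrays lay below the lowest A/J value. Fgf10 was higher in hippocampus in both strains, by 1.65 in C57BL/6J and by 3.46 in A/J (interaction -1.81 ± 0.28, adjusted p = 4.4e-04). Iyd was higher in hippocampus by a fitted 2.56 in C57BL/6J and 1.37 in A/J, with no detection in either amygdala group (interaction 1.18 ± 0.18, adjusted p = 4.4e-04). Zfhx3, a zinc finger homeobox factor, differed by 0.05 in C57BL/6J and by -2.27 in A/J (interaction 2.32 ± 0.42, adjusted p = 0.00562), and Krt9, a keratin, by 0.55 and -0.99 (interaction 1.55 ± 0.23, adjusted p = 3.2e-04).

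The next genes in order, Frzb, Fhdc1 and Fgl1, did not pass (adjusted p = 0.0133, 0.0163 and 0.0202). Of 103 genes that were called list members or had the largest differences, 3 passed the interaction test, Iyd, Fgf10 and Lypd1. Nearest to the threshold among the others were Rgs9, at 1.74 ± 0.39 (adjusted p = 0.0424), and C1ql2, at 1.52 ± 0.37 (adjusted p = 0.0872). The thalamus genes Prkcd, Tcf7l2 and Rora did not pass either, with interactions of 1.57 ± 0.39, 1.12 ± 0.34 and 1.81 ± 0.50 (adjusted p = 0.105, 0.282 and 0.172). With differences of this size and standard errors of up to 0.50, a strain dependence of these genes was neither shown nor bounded closely.

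**Figure D5:**
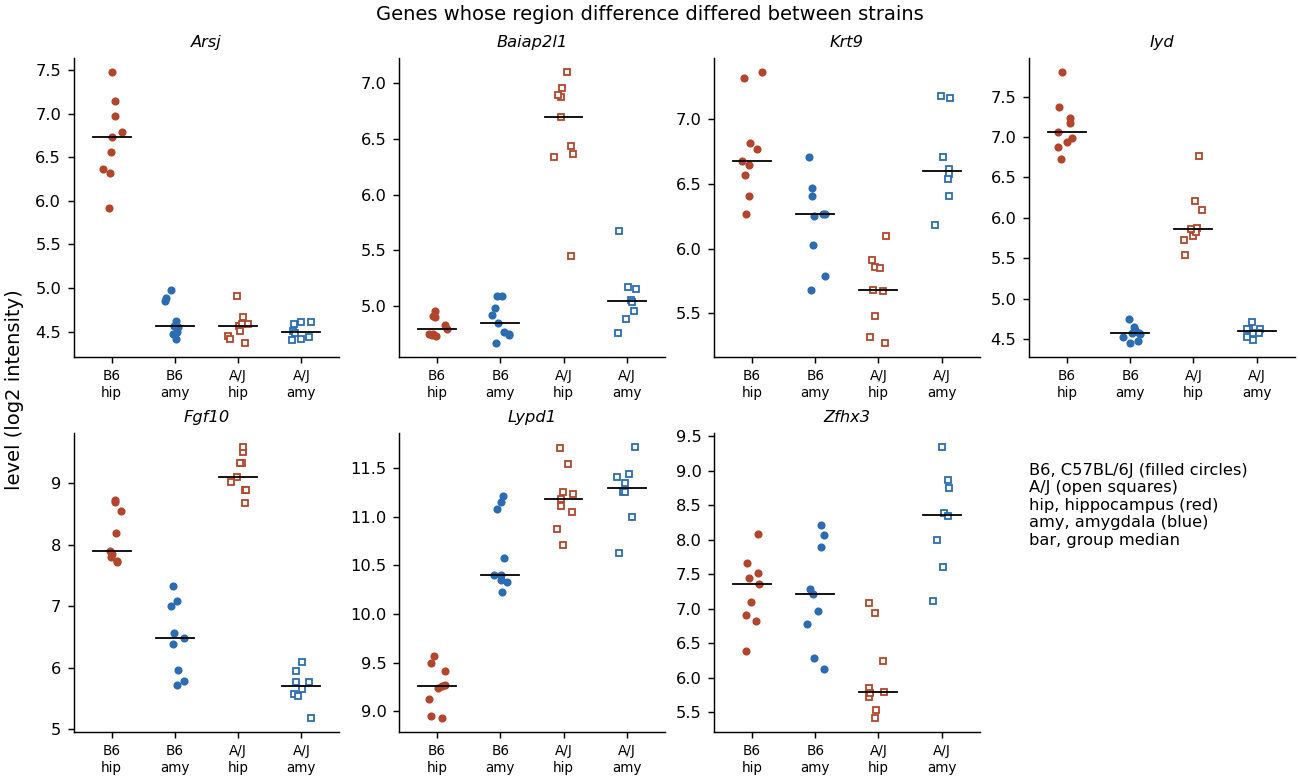
Levels (log2 intensity, each panel on its own axis) of the 7 genes whose region difference differed between the strains, on 9 C57BL/6J hippocampus, 9 C57BL/6J amygdala, 9 A/J hippocampus and 8 A/J amygdala arrays, each point 1 array and each bar a group median. Arsj is raised in C57BL/6J hippocampus only (median 6.73), Baiap2l1 in A/J hippocampus (median 6.69), and Lypd1 is lowest in C57BL/6J hippocampus (median 9.26).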

How the data were processed

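Hippocampus and amygdala of males of both strains were profiled on Illumina MouseRef-8 V1.1 arrays. The authors extracted signals with BeadStudio, and the deposited table holds, for 24620 probes and 35 arrays, a signal of linear intensity without normalization between arrays (other than the subtraction of the negative control mean, which leaves 31.3% of the values of the 18 arrays at or below 0) and a detection score, which is 1 minus the detection p. The deposited series table holds the authors' log2 values, made with the variance stabilizing transformation and robust spline normalization of Lumi, and was used as an alternative. Decimal commas were read as points.

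From the signals, log2 values were computed with neqc of limma 3.58.1 (R 4.3.3), which corrects the background by normexp from the detection p-values, adds 16 and quantile normalizes. Probes detected on 9 or more of 18 arrays were tested with lmFit and eBayes, with Benjamini-Hochberg adjustment over all tested probes and a threshold of 0.01. The interaction used all 35 arrays and probes detected on 8 or more. Samples of 1 group came from individual mice. The p-values set each difference against the spread between the arrays of a region, which mixes mice, punches and chips. The labels do not say whether a mouse gave both regions, and the fit treated the 18 arrays as independent. The number of arrays, 9 a region, sets the precision, and dim probes are bounded by background. In data simulated for this comparison on 8363 probes, the fit called 94 of 100 probes changed by 2 on the log2 scale, 58 of 100 changed by 1, and 0 unchanged ones. The simulated noise was drawn separately for each probe, without chip effects or differences in depth. These counts are thus no error rate of the calls reported here. Of all probes 20984 have 1 gene symbol.

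Members and lists were chosen with earlier results of these data known. Named are the 12 genes with the largest difference in each direction (1 symbol, called, no overlap), those detected on 9 arrays of one region and 0 of the other, members of the 36 lists, and the 10 named genes with the smallest interaction p. Alternatives were the authors' values, other scalings, backgrounds and filters, chip, chip lot, depth and array weights, and leaving out each array. Lists use the brightest tested probe of a gene. Of 59 such genes with several tested probes, 6 (Arpp21, Camk2a, Doc2a, Impact, Pcdh10 and Sema5a) had another probe on the other side of the threshold.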

Additional observations from a re-analysis of the deposited data

Results flagged for a closer look

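In 50 sets of 9 arrays (24 genes by 2 regions, and the number of detected probes), 3 held 1 array far from the others, and chance alone flags about 1 in 20. Prkcd was 8.37 on hippocampus array 2, against 9.61 to 10.76 on the other 8. Homer3 was 6.46 on amygdala array 5, against 4.66 to 5.50 on the other 8. Olfml2b was 7.15 on amygdala array 3, against 5.52 to 6.31 on the other 8. All 3 genes passed without each of these arrays. The difference between regions differed between the strains for 7 genes, as C57BL/6J minus A/J: Arsj by 1.99, Baiap2l1 by -1.53, Krt9 by 1.55, Iyd by 1.18, Fgf10 by -1.81, Lypd1 by -1.31 and Zfhx3 by 2.32.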

How the results depend on the processing

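No paired analysis was possible because the labels do not tie hippocampus to amygdala samples. Of 727 alternative values of the 24 genes with the largest differences, 726 kept their direction and passed. Clic6 with the authors' values kept its direction but missed the threshold (-0.44 on their compressed scale, adjusted p = 0.0148). Only 7 of the 24 were detected on all 18 arrays and so retested under that filter. These genes were picked for large differences on the same arrays, so their stability does not stand for that of all calls. Of all 471 calls, 73.0% were kept with chip as a fixed block and 57.1% within chip lot 2. The 289 higher and 182 lower probes became 462 and 308 with the number of detected probes as a covariate, 445 and 293 with array weights, 450 and 275 at an adjusted p under 0.05, 192 and 126 on probes detected on all 18 arrays (fewer were tested), and 167 and 106 within chip lot 2 (13 arrays). All 471 were among those called with the covariate, and 461 among those with array weights. Without 1 array the counts were 261 to 296 and 161 to 185. Other alternatives stayed within 1.5 times the count, among them chip as a fixed block with 213 and 161. Interaction calls, 7, were 2 with arrays scaled to a common median, 4 with chip as a block, 14 with the covariate and 20 at an adjusted p under 0.05. Of the 97 called list members, 87 were called in every fit without 1 array and 10 were lost in 1 or more (adjusted p-values of at most 0.0182), while 22 of the 406 not called gained a call in 1 or more. Background limits genes at or near it: for probes detected in part of a group, the size of a difference is uncertain, and list genes never detected here are not shown to be absent.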
